A study of Homo sapiens with 6 samples.

Results

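The genes examined here were 43 genes of mitosis and of the G2/M step of the cell cycle, taken by symbol from a fixed list and measured in PC9 cells, an EGFR-mutant lung adenocarcinoma line. The list is one of a process, and the rule that picks its genes uses no measured value, but the list was chosen with earlier results of these data known. Every non-control probe set that the array annotation assigns to exactly one of these genes was used, which gave 84 of 54613 probe sets, and all 43 genes were found among the 19775 genes with such a probe set. A probe set is the group of short probes that reads one transcript on the array.

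Total RNA from 3 samples labelled as drug-tolerant persisters (DTPs) and from 3 samples labelled as parental cells was hybridised to Affymetrix HG-U133 Plus 2.0 arrays, 1 array a sample. DTPs had been exposed to 2 µM of the EGFR kinase inhibitor erlotinib for 9 days, begun when the plates were at 80% confluency, and were harvested on day 10. Parental cells had received DMSO and, per the labels, were harvested on day 3 at 100% confluency, whereas the design text gives the vehicle the same 9 days as the drug. If the labels hold, drug, culture time and cell density cannot be told apart in this comparison. Both groups carried a GFP vector, and nothing in the labels says whether the 3 samples of a group were separate cultures, so p-values measure the spread between these samples only.

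Entry into mitosis is driven by CDK1 bound to cyclin B, a complex that CDC25 phosphatases switch on and that the Polo and Aurora kinases reinforce. Chromosomes are then attached to spindle microtubules through kinetochores, a checkpoint holds the cell until every kinetochore is attached, and the anaphase-promoting complex (APC/C) with CDC20 then starts chromosome separation, after which the cell is divided at cytokinesis. Transcripts of most of these genes accumulate in G2 and mitosis in dividing cells. In bulk RNA, fewer cells of a kind (here, fewer cells in G2 or mitosis) and less RNA per cell cannot be told apart.

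Mitotic transcripts were lower in DTPs across most roles. A gene was called when its limma p-value, adjusted over all 19775 genes, was below 0.05 and its fold change was above 1.5. By this rule 23 of the 43 genes fell in DTPs, none rose, and 20 were not called; over all genes 6.13% were called lower and 8.08% higher. At an unadjusted p below 0.05 with no fold minimum 1 of the 43, MYBL2, was higher, and the methods' t-test also called none higher. Without the fold minimum, 36 of the 43 passed in the lower direction and none in the higher. Over all 19775 genes 24% passed lower and 4043 genes passed higher. The median log2 fold change of the 43 was −0.64, with the quartiles at −0.79 and −0.36, and that of all genes was −0.05. For 35 of the 43 genes every DTP array was below every parental array, which held for 29.8% of all genes. The changes were moderate in size: 3 genes fell by at least 2-fold (NDC80, NEK2 and CDC25C), and the rest of those called lay between 1.55-fold and 1.95-fold. The called genes nearest the fold limit were CENPE and TTK, both 1.55-fold lower, and the nearest gene that missed it was TOP2A, just under it at a log2 fold change of −0.58.

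**Figure D1:**
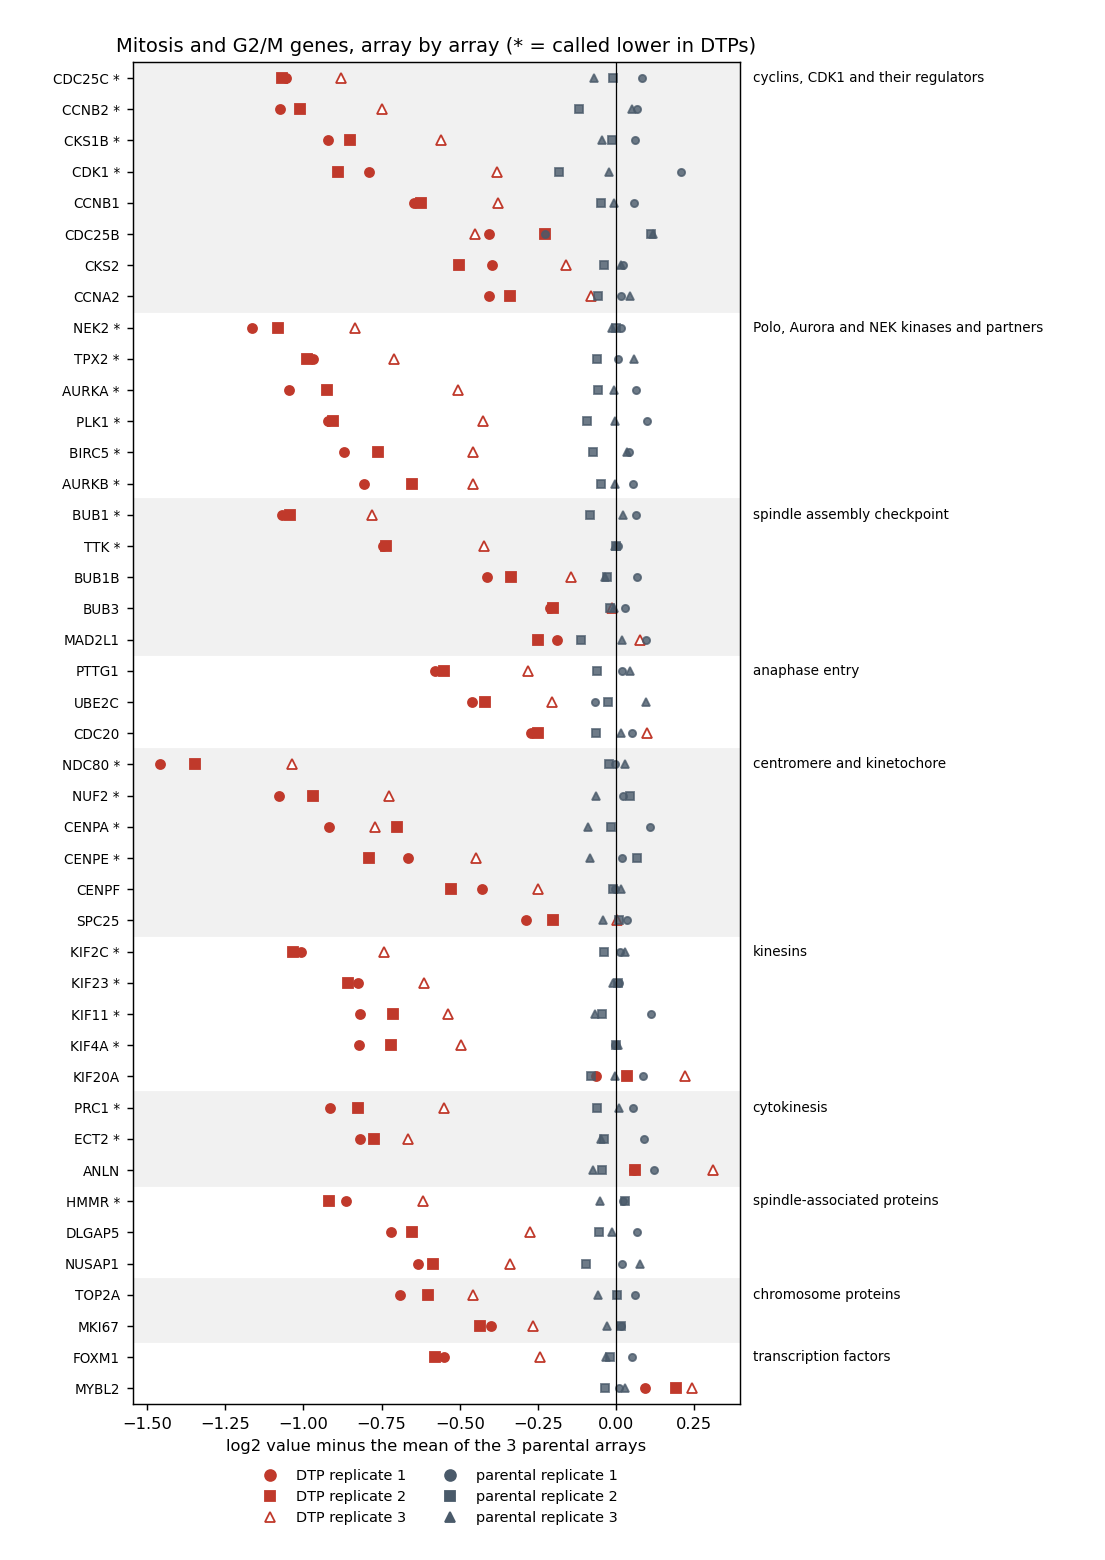
Log2 value of each of the 43 genes on each array minus the mean of the 3 parental arrays (horizontal axis), grouped by role, for 3 DTP arrays (red; the open triangle is replicate 3) and 3 parental arrays (grey). In the 23 genes marked with an asterisk the red points all lie left of the grey ones, and replicate 3 is the DTP point nearest to the parental arrays in most rows.

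The promoters of the 43 genes were read for 2 short elements known from this gene class. The cell cycle genes homology region (CHR, searched as TTTGAA or its variant with one changed letter, TTCGAA) is the element through which the DREAM complex holds these genes off in resting cells and through which MYBL2 and FOXM1, on the MuvB core, raise them in G2. The CCAAT box (searched as CCAAT) is bound by the factor NF-Y. RefSeq promoters (GRCh38.p14, 250 bases before to 50 after a start site, both strands searched; matches of the 2 elements may overlap, as they do in MKI67) were found for 36 of the 43 genes; AURKA, TPX2, BIRC5, BUB3, TTK, UBE2C and FOXM1 were not matched. CHR letters were present in 27 of the 36 genes (75%), against 19.5% of all 27305 genes in the table and 17.2% of the 15382 of these with a probe set. CCAAT letters were present in 29 of the 36 (80.6%), against 39.7% and 41.7%, and both elements in 23 (63.9%), against 7.85% and 7.12%. Counted by window rather than by gene, CHR letters stood in 30 of 46 windows of these genes (65.2%), against 16.4% of all 35116 windows, and CCAAT letters in 34 (73.9%), against 34.6%. A match is a description of the letters and not a shown binding site.

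A set of 8 stretches is printed, from 110 bases before to 20 bases after the start site. They include the gene with the largest fall (NDC80) and the 3 genes whose fold change was above 0 (ANLN, KIF20A and MYBL2). The other 4 (CCNB2, PLK1, PRC1 and HMMR) were picked from the called genes for CHR letters just before the start. Called genes without CHR letters, such as NEK2 and KIF2C, are not printed. The printed set therefore does not show how CHR letters and fold change go together. Capitals mark the searched letters of both elements on either strand, and the rest is in lower case. Their positions are NDC80 (chr18:2571447-2571576, plus strand), CCNB2 (chr15:59105036-59105165, plus strand), PLK1 (chr16:23678779-23678908, plus strand), PRC1 (chr15:90994516-90994645, minus strand), HMMR (chr5:163460522-163460651, plus strand), ANLN (chr7:36389752-36389881, plus strand), KIF20A (chr5:138179002-138179131, plus strand) and MYBL2 (chr20:43667004-43667133, plus strand).
NDC80: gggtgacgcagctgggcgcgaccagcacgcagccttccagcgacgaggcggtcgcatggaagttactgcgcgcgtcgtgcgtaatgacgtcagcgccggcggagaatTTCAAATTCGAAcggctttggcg
CCNB2: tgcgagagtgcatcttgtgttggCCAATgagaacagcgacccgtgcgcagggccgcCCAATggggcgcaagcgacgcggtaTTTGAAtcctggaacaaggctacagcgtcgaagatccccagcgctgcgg
PLK1: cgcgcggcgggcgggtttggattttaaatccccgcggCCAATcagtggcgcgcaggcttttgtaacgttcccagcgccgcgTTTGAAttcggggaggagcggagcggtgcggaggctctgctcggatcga
PRC1: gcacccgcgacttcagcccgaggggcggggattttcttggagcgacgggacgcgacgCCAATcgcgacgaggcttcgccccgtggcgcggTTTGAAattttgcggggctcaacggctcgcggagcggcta
HMMR: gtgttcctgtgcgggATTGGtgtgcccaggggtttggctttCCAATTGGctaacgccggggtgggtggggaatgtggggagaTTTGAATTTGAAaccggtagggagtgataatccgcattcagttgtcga
ANLN: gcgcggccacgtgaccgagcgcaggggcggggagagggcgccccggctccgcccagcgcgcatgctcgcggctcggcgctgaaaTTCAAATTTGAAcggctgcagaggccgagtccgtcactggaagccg
KIF20A: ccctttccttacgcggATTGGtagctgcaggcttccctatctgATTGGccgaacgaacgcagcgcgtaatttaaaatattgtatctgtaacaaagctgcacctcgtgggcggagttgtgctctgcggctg
MYBL2: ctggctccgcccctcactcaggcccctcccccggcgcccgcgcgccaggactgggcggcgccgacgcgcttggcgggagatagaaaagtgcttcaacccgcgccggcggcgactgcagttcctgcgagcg

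In CCNB2 and PLK1 the CHR letters began 29 bases before the start site, with CCAAT letters beginning 54 and 73 bases before it. In PRC1 they began 20 bases before it and in HMMR 2 copies lay end to end, beginning 28 and 22 bases before it. NDC80 held a pair of CHR matches at its start site and no CCAAT. ANLN, which was not called, carried CHR letters in tandem beginning 26 and 20 bases before its start, and KIF20A (CCAAT only) and MYBL2 (neither) had none. CHR letters were present in 15 of the 19 matched genes called lower (78.9%) and in 12 of the 17 not called (70.6%), and both elements in 13 (68.4%) and 10 (58.8%); the difference was not tested. The median log2 fold change was −0.69 for the 27 genes with CHR letters and −0.55 for the 9 without, among them NEK2 and KIF2C, which are among the genes that fell most.

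**Figure D2:**
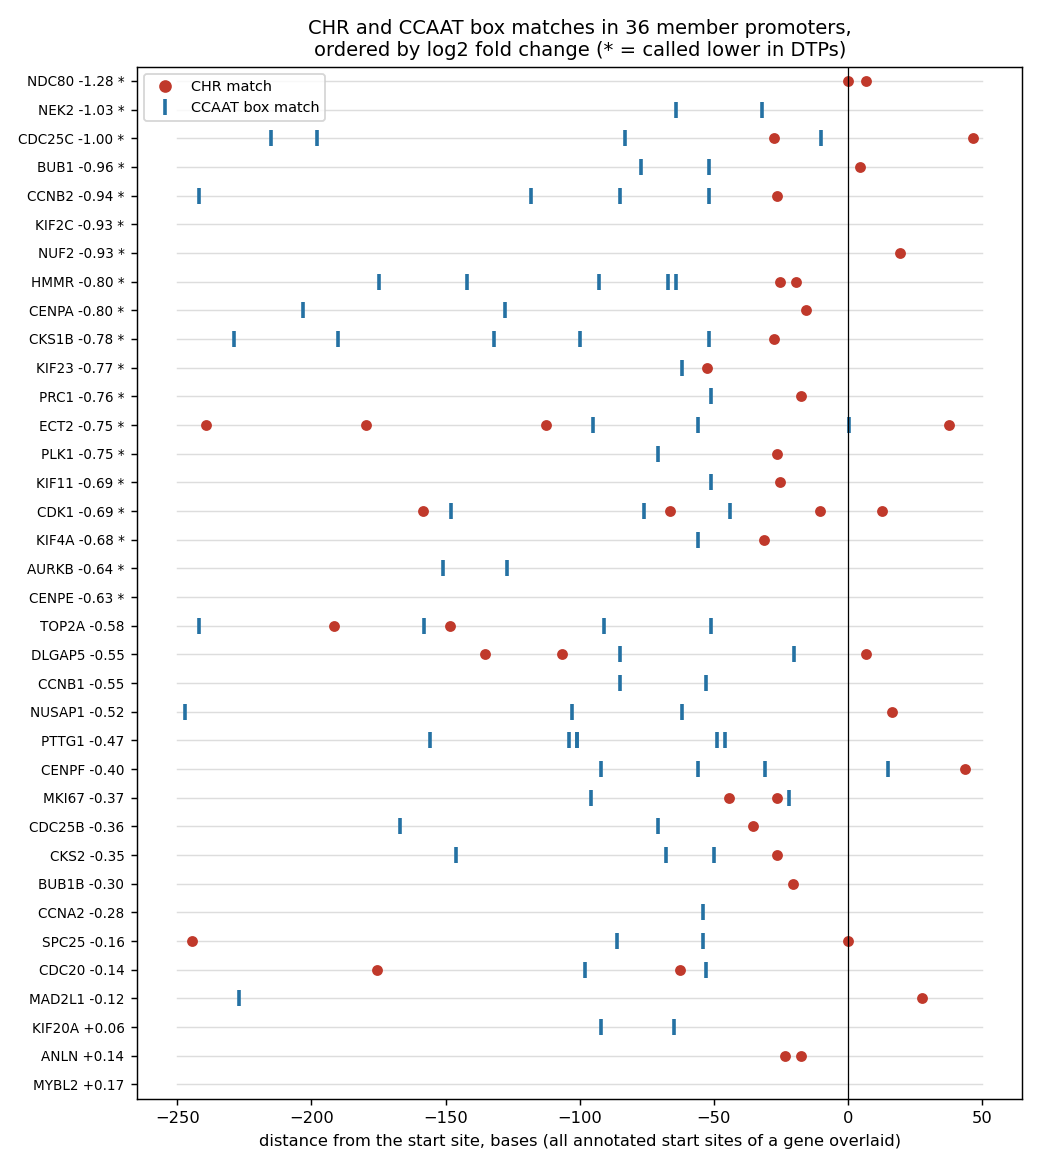
Position of CHR matches (red points) and CCAAT box matches (blue bars) relative to the start site, in bases, for the 36 genes with a promoter in the table, from the largest fall (NDC80, log2 fold change −1.28) at the top to MYBL2 (0.17) at the bottom. Of 43 CHR matches 22 and of 73 CCAAT matches 50 lie within the 110 bases before the start, in genes called lower (asterisk) and in genes not called. Matches are counted per start-site window, so a site in overlapping windows of a gene is counted more than once.

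Of the 8 mitotic cyclins, CDK1 and their regulators 4 fell and none rose, with a median of −0.62. CDC25C, the phosphatase that removes inhibitory phosphates from CDK1, had log2 values of 8.64, 8.63 and 8.82 in DTPs, against 9.78, 9.69 and 9.62 in parental cells. It fell by 1.00 ± 0.08 on the log2 scale (SE, n = 3 each; adjusted p = 3e-07). CCNB2, a B-type cyclin, had 10.12, 10.18 and 10.45 in DTPs, against 11.26, 11.08 and 11.25 in parental cells (log2 fold change −0.94 ± 0.09, adjusted p = 2.7e-06). CKS1B, a small subunit that docks CDKs onto substrates, had 11.58, 11.65 and 11.94 in DTPs, against 12.56, 12.49 and 12.45 in parental cells (−0.78 ± 0.09, adjusted p = 1.5e-05). In all 3 genes the groups were apart by more than the spread within either. CDK1 itself fell by 0.69 on the log2 scale. The remaining genes did not reach the fold limit: CCNB1, the main B-type cyclin, had a fold change of −0.55, CDC25B of −0.36 with overlapping groups, and CKS2, the second CKS subunit, of −0.35. CCNA2, cyclin A of S phase and G2, moved least, with 10.95, 11.02 and 11.28 in DTPs, against 11.37, 11.30 and 11.40 in parental cells (−0.28 ± 0.09, adjusted p = 0.02). Its groups stood apart only narrowly, since DTP replicate 3 lay just below the lowest parental array. By the second CCNA2 probe set, at −0.24, the groups overlapped (limma p adjusted over all probe sets = 0.059).

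All 6 of the Polo, Aurora and NEK kinases and their partners fell, with a median of −0.79. NEK2, which separates centrosomes before spindle assembly, had 10.15, 10.23 and 10.48 in DTPs, against 11.33, 11.31 and 11.30 in parental cells (log2 fold change −1.03 ± 0.08, adjusted p = 6.1e-07). TPX2, which activates Aurora A on the spindle, had 11.28, 11.26 and 11.54 in DTPs, against 12.25, 12.19 and 12.31 in parental cells (−0.89 ± 0.08, adjusted p = 2.1e-06). AURKA, the Aurora A kinase of centrosomes and spindle poles, had 10.37, 10.49 and 10.91 in DTPs, against 11.48, 11.36 and 11.41 in parental cells (−0.83 ± 0.11, adjusted p = 6.6e-05). The groups were clearly apart in all 3, and the DTP arrays were spread more widely than the parental ones. PLK1, the Polo kinase whose promoter is shown above, fell by 0.75. AURKB, the kinase that corrects faulty attachments, changed least of the 6, with 8.60, 8.75 and 8.95 in DTPs, against 9.46, 9.36 and 9.40 in parental cells (−0.64 ± 0.09, adjusted p = 5.7e-05). Its partner BIRC5 (survivin) fell by 0.70, and of the other members of that complex CDCA8 (borealin) fell by 0.61, a call lost without DTP replicate 1, without parental replicate 1 or 3, with cyclic loess normalisation and after centring on ribosomal protein genes or on spike-in controls, and INCENP had −0.16, which was not called.

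The spindle assembly checkpoint was uneven. Of 5 genes 2 fell and the median was −0.30. BUB1, a kinase that sits at kinetochores and protects centromere cohesion, had 9.18, 9.21 and 9.47 in DTPs, against 10.32, 10.17 and 10.28 in parental cells (log2 fold change −0.96 ± 0.09, adjusted p = 1.2e-06). TTK, the kinase (MPS1) at the top of the checkpoint, fell by 0.64. BUB1B (BUBR1) and BUB3, which with MAD2L1 and CDC20 form the complex that inhibits the APC/C, had −0.30 and −0.14. MAD2L1 had 10.81, 10.75 and 11.08 in DTPs, against 11.09, 10.89 and 11.02 in parental cells (−0.12 ± 0.09, adjusted p = 0.32). Its groups overlapped, as did those of the probe set taken for BUB3. Another MAD2L1 probe set had −0.18, also with overlapping groups. The dimmest MAD2L1 probe set had −0.37, with every DTP array below every parental array, and no MAD2L1 probe set was called. Of the 6 BUB3 probe sets, others had −0.32, −0.34 and −0.25, each with every DTP array below every parental array. The dimmest had −0.10 and 0.02, and no BUB3 probe set was called. The 2 checkpoint genes called were kinases, and the 3 subunits of the inhibitor complex were not called. The difference between the 2 sets of genes was not tested.

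None of the 3 genes of anaphase entry was called, and their median was −0.36. CDC20, the activator of the APC/C, had 10.77, 10.79 and 11.14 in DTPs, against 11.09, 10.98 and 11.06 in parental cells (log2 fold change −0.14 ± 0.09, adjusted p = 0.25). Replicates 1 and 2 of the DTPs were below all parental arrays and replicate 3 was above them all. UBE2C, the ubiquitin-conjugating enzyme of the APC/C, had −0.36, and PTTG1 (securin), the inhibitor of separase, had −0.47, each with every DTP array below every parental array. With all values shifted by the mean of the spike-in controls, the probe sets taken for BUB3, MAD2L1 and CDC20 turned positive, at most 0.03. Shifting by ribosomal protein genes turned MAD2L1 as well.

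Centromere and kinetochore genes held the largest change of the 43. NDC80, the microtubule-binding subunit of the complex of that name, had 9.57, 9.68 and 9.99 in DTPs, against 11.02, 11.00 and 11.06 in parental cells. The groups were more than 1 log2 unit apart at their nearest arrays, and the log2 fold change was −1.28 ± 0.10 (2.43-fold lower, adjusted p = 2.5e-07). NUF2, its direct partner, had 8.73, 8.84 and 9.08 in DTPs, against 9.83, 9.85 and 9.74 in parental cells (−0.93 ± 0.09, adjusted p = 2.5e-06). The other pair of subunits of the same complex looked different. SPC25 had 7.99, 8.08 and 8.28 in DTPs, against 8.31, 8.29 and 8.24 in parental cells (−0.16 ± 0.08, adjusted p = 0.13), and its partner SPC24 had 0.02 (adjusted p = 0.87). The groups of SPC25 overlapped through DTP replicate 3. CENPA, the histone variant that marks centromeres, had 9.18, 9.40 and 9.33 in DTPs, against 10.20, 10.08 and 10.01 in parental cells (−0.80 ± 0.08, adjusted p = 3.7e-06). CENPE, the kinesin that moves chromosomes to the spindle equator, fell by 0.63. CENPF, a large G2-phase kinetochore protein, had 10.66, 10.56 and 10.84 in DTPs, against 11.08, 11.08 and 11.10 in parental cells (−0.40 ± 0.08, adjusted p = 0.00098), under the fold limit, so that 4 of the 6 genes of this role were called, with a median of −0.72.

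Of the 5 mitotic kinesins 4 fell and the median was −0.69. KIF2C (MCAK), which takes apart microtubule ends at centromeres, had 10.53, 10.50 and 10.79 in DTPs, against 11.55, 11.49 and 11.56 in parental cells (log2 fold change −0.93 ± 0.08, adjusted p = 1.3e-06). KIF23 (MKLP1), the motor of the centralspindlin complex, had 9.35, 9.31 and 9.56 in DTPs, against 10.18, 10.18 and 10.16 in parental cells (−0.77 ± 0.08, adjusted p = 3.7e-06). KIF11 (Eg5), which pushes spindle poles apart, and KIF4A, which works with PRC1 at the central spindle, fell by 0.69 and 0.68. KIF20A (MKLP2), which carries Aurora B to the central spindle, was the exception, with 9.97, 10.06 and 10.25 in DTPs, against 10.12, 9.95 and 10.03 in parental cells (0.06 ± 0.08, adjusted p = 0.57). Its groups overlapped, and its value was −0.02 without DTP replicate 3.

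Cytokinesis genes were split in the same way. PRC1, which bundles the microtubules of the central spindle, had 10.74, 10.83 and 11.11 in DTPs, against 11.71, 11.59 and 11.67 in parental cells (log2 fold change −0.76 ± 0.09, adjusted p = 1.7e-05). ECT2, the exchange factor that switches on RhoA for furrowing, fell by 0.75, and RACGAP1, the partner of KIF23 that recruits it, also by 0.75. ANLN (anillin), the scaffold of the contractile ring, had 11.39, 11.39 and 11.64 in DTPs, against 11.45, 11.29 and 11.26 in parental cells (0.14 ± 0.09, adjusted p = 0.21). The ANLN groups overlapped, and its second probe set gave 0.16.

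Of the 3 spindle-associated proteins 1 was called. HMMR, which helps to place spindle poles, had 11.08, 11.03 and 11.33 in DTPs, against 11.97, 11.98 and 11.90 in parental cells (log2 fold change −0.80 ± 0.08, adjusted p = 5.3e-06). NUSAP1, a microtubule-bundling protein, had 10.62, 10.66 and 10.91 in DTPs, against 11.27, 11.15 and 11.32 in parental cells (−0.52 ± 0.09, adjusted p = 0.00029), which missed the fold limit, as did DLGAP5 (HURP), a protein of kinetochore fibres, at −0.55. Groups did not overlap in any of the 3. Of the 2 chromosome proteins, TOP2A, the topoisomerase that untangles sister chromatids, had −0.58. MKI67, the Ki-67 protein of the mitotic chromosome surface and a common marker of dividing cells, had 9.73, 9.69 and 9.86 in DTPs, against 10.15, 10.15 and 10.10 in parental cells (−0.37 ± 0.07, adjusted p = 0.00081). All DTP arrays of MKI67 were lower by this probe set, by less than the fold limit. Its other probe sets had −0.58, −0.21 and −0.20, and none was called. In those at −0.21 and −0.20 the groups overlapped.

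The 2 transcription factors that raise G2/M genes were not called. FOXM1 had −0.46 (adjusted p = 0.001) with non-overlapping groups. MYBL2 (B-MYB), whose own transcript peaks earlier, around the entry into S phase, had 9.84, 9.94 and 9.99 in DTPs, against 9.76, 9.71 and 9.78 in parental cells (log2 fold change 0.17 ± 0.07, adjusted p = 0.055). It was the one gene of the 43 with every DTP array above every parental array.

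DTP replicate 3 differed from the other 2 DTP arrays throughout this gene group. With each gene set against its own parental mean, the 43 genes averaged −0.68, −0.64 and −0.39 on DTP arrays 1, 2 and 3, against 0.04, −0.04 and −0.005 on the parental arrays. Replicate 3 was the highest of the 3 DTP arrays for 41 of the 43 genes (95.3%), the exceptions being CDC25B and CENPA, whereas it was the highest for 41.3% of all genes and for 68.2% of the 1212 genes called lower. It exceeded the mean of replicates 1 and 2 by a median of 0.27 over the 43 genes, by 0.14 over all genes called lower and by 0.01 over all genes. The offset was present in every role, from −0.96, −0.89 and −0.57 in the Polo, Aurora and NEK role to −0.23, −0.19 and −0.001 for the transcription factors. The DNA replication and G1/S genes, as a separate list of 48, showed it as well, with −0.08, −0.03 and 0.15 on the DTP arrays and replicate 3 highest in 42 (87.5%), although their median fold change was 0.04. Without DTP replicate 3 the number called lower was 27, through the addition of CCNB1, DLGAP5, NUSAP1 and TOP2A, and the median was −0.73. AURKB and TTK were not called without DTP replicate 1, CDK1, TTK and CENPE were not called without DTP replicate 2, CDK1 was not called without parental replicate 1, and TOP2A was called without parental replicate 3. Nothing in the labels sets replicate 3 apart, and what made it differ was not tested.

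**Figure D3:**
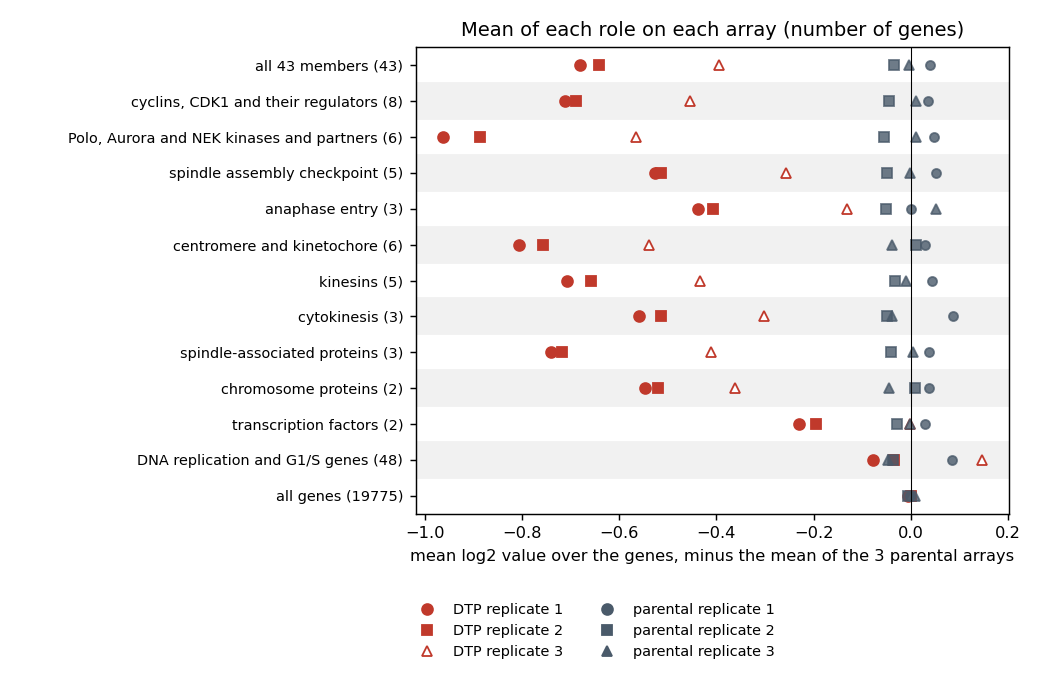
Mean over the genes of each role of the log2 value minus the parental mean of each gene (horizontal axis), for 3 DTP arrays (red; the open triangle is replicate 3) and 3 parental arrays (grey), with the number of genes in brackets. All roles lie left of 0 on every DTP array, the transcription factors only just on replicate 3 (−0.001), and replicate 3 is the highest DTP point in every role and in the replication list.

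Probe sets reading the same gene did not always move together. Over the 84 probe sets 33 were called lower and 1 higher, with p-values adjusted over all 54613, of which 4.93% were called lower and 7.56% higher. The values of 73 of the 84 were below 0 and their median was −0.43. For 10 probe sets both group means were below 7.29, the median of all probe sets. None of these was called lower and 1 was called higher, while 33 of the other 74 were called lower and none higher. There were 21 genes with more than 1 probe set. Every probe set of NEK2, KIF2C and HMMR was called lower. CCNB1, not called by its brighter probe set, had a second one at −0.90 (adjusted p = 4e-05), which was called. The probe sets disagreed in sign beside a called one in CCNB2 (−0.94 and −0.28, against 0.36 in the dimmest), AURKB (−0.64, against 0.27), KIF23 (−0.77, against 0.33) and CENPF. In CENPF the brightest had −0.40, another 0.16, and the dimmest, with means of 5.57 in DTPs and 4.95 in parental cells, 0.62 (adjusted p = 3e-04), the only one called higher. When the probe sets of each gene were averaged instead, 18 of the 43 genes were called lower: CCNB2, AURKA, AURKB, BIRC5, BUB1 and KIF23 were no longer called and CCNB1 was. The files do not place the probe sets on transcripts, so what the dissenting ones read was not tested. PTTG1, CENPA and FOXM1 were read only by probe sets that the array maker marks as open to cross-hybridisation, and 1 further probe set, named for both CENPA and SLC35F6, was left out.

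**Figure D4:**
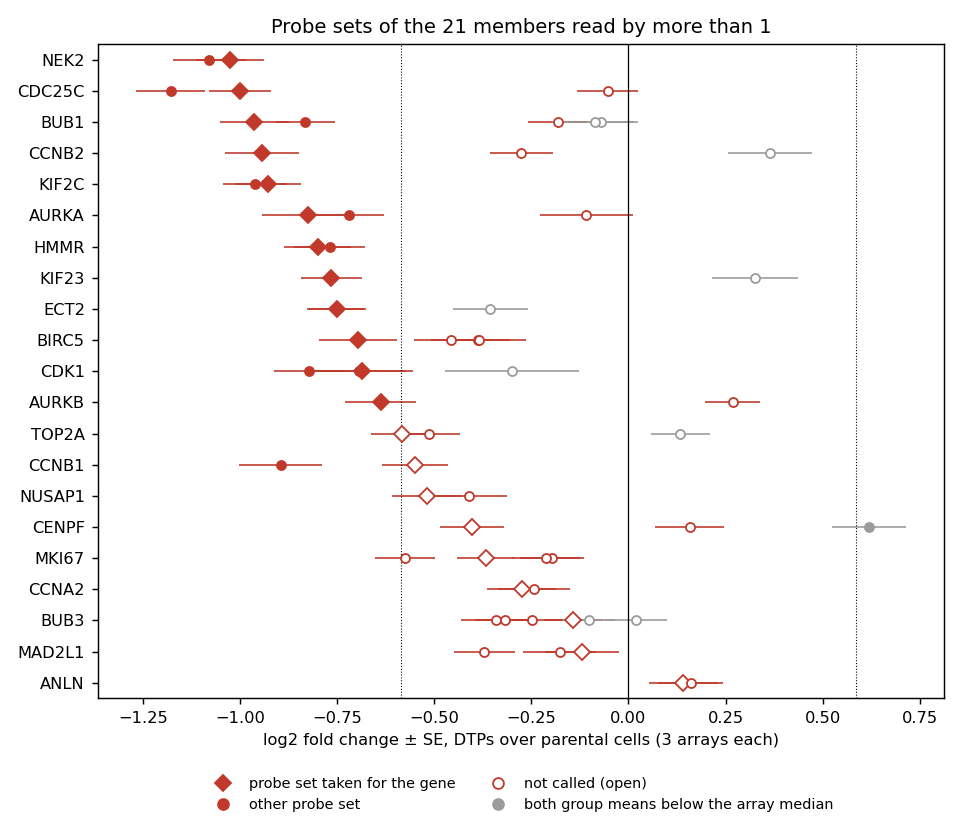
Log2 fold change ± SE, DTPs over parental cells (3 arrays each), of the 62 probe sets of the 21 genes with more than 1, with the probe set taken for the gene as a diamond, called ones filled and those with both group means below the median of all probe sets in grey; dotted lines mark 1.5-fold. The 4 genes in which a called probe set stands beside one of opposite sign are CCNB2, KIF23, AURKB and CENPF.

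Other genes of the pathway were taken from 6 further lists, of which 111 of 115 genes were measured: 24 fell, 2 rose and 85 were not called, with a median of −0.34. The list of other spindle, kinesin and cytokinesis genes had 12 of 22 lower, none higher and a median of −0.63, the nearest of the 6 medians to that of the 43; after either centring 7 of its genes were called lower. CKAP2L, a spindle-pole protein, fell most, with 8.53, 8.41 and 8.79 in DTPs, against 10.03, 10.05 and 10.03 in parental cells (log2 fold change −1.46 ± 0.09, adjusted p = 4e-08), more than any of the 43. KIF15, a kinesin that backs up KIF11, and KNSTRN, a kinetochore adaptor, fell by 1.04 and 0.93. Other centromere and kinetochore genes were mixed, with 6 of 32 lower, 1 higher and a median of −0.29 (4 lower after ribosomal and 3 after spike-in centring). SKA1, which holds kinetochores on shrinking microtubules, fell by 1.00, and CENPH and CENPU, of the inner kinetochore, had −0.92 and −0.79. CENPT, which ties the NDC80 complex to DNA, rose, with 8.57, 8.78 and 8.59 in DTPs, against 7.97, 8.19 and 7.84 in parental cells (0.65 ± 0.09, adjusted p = 0.0001). Its groups did not overlap, but the call was lost without DTP replicate 2, without parental replicate 3 and with the mean of probe sets. The call of CENPU was also lost with the mean of probe sets.

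Condensin and cohesin subunits, which compact chromosomes and hold sister chromatids, were lower in 4 of 17, with a median of −0.48. In this list SMC3 fell by 0.88, SMC4 by 0.74 and STAG1 by 0.74. The calls of SMC4 and STAG1 were lost with the mean of probe sets. Further mitotic kinases, phosphatases and CDK1 regulators had none of 13 called lower and 1 called higher, with a median of −0.19. With no fold minimum, 7 of these genes were lower and 3 higher at an adjusted p below 0.05. Over all 19775 genes 4754 (24%) were lower and 4043 higher by that rule. With the fold minimum, 3 genes of the list were called higher after either centring. NEK7, a kinase of the centrosome that also acts in the inflammasome, rose, with 11.02, 11.10 and 11.12 in DTPs, against 10.14, 10.03 and 9.98 in parental cells (log2 fold change 1.03 ± 0.07, adjusted p = 1e-07). The APC/C subunits and regulators had 1 of 16 lower, ANAPC10 by 0.59, and a median of −0.05, the same as that of all genes. ANAPC10 was not called without DTP replicate 1, without parental replicate 1, with the mean of probe sets or after either centring; under both centrings the list had 0 lower and 1 higher. The DREAM and MuvB subunits had 1 of 11 lower, E2F5 by 0.90, and a median of −0.03. For 3 of these 11 genes both group means were below the median of all probe sets. Beside the counts of these lists, 6.13% of all genes were called lower and 8.08% higher. The DNA replication and G1/S list had 4 of 48 lower and 2 higher, among them CCNE2, the cyclin of S-phase entry, at 1.83. After centring on ribosomal protein genes this list had 2 lower and 4 higher, and after centring on spike-ins 1 lower and 5 higher. No test set one list against another.

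**Figure D5:**
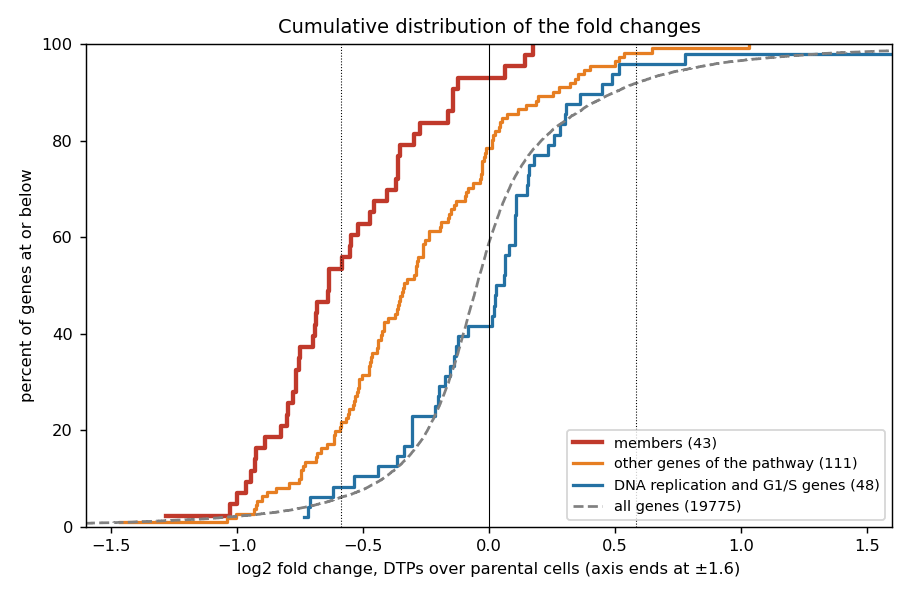
Percent of genes (vertical axis) at or below each log2 fold change, DTPs over parental cells (horizontal axis, cut at ±1.6), for the 43 genes, 111 other genes of the pathway, 48 DNA replication and G1/S genes and all 19775 genes; dotted lines mark 1.5-fold. At its median (−0.64) the curve of the 43 genes lies left of the others, while at the far left end it starts at −1.28 and the curves of the other pathway genes and of all genes reach lower; the replication list runs close to that of all genes, with medians of 0.04 and −0.05.

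Arrays of one group correlated at 0.997 to 0.998 over all probe sets and arrays of different groups at 0.970 to 0.975. The 5 epithelial markers examined had group means of at least 12.56 and none was called. Of the 6 fibroblast and 4 blood markers measured none was called, and 5 and 2 of them had both means below the array median; of 3 endothelial markers PECAM1 fell by 0.69. The difference between 3′ and 5′ control probe sets, a sign of RNA quality, averaged lower in DTPs by 0.11 for ACTB and by 0.02 for GAPDH on the log2 scale, and in both the groups did not overlap (exact permutation test, two-sided, p = 0.10, the smallest that 3 against 3 can give); its part in the results was not tested. Spike-in controls were lower by 0.15 and 28 ribosomal protein genes by 0.13 in DTPs. Shifting every array to either one left 16 of the 43 genes called lower and none higher, since CDK1, AURKB, BIRC5, TTK, CENPE, KIF11 and KIF4A then missed the fold limit.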

How the data were processed

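Gene expression was measured on Affymetrix HG-U133 Plus 2.0 arrays. The log2 values were deposited by the authors, who per the labels ran RMA with the affy package (versions not given in the sources used here) and per the methods applied quantile normalisation, which hides a change in total RNA per cell and gives no detection call. The deposited values were used as they are: 62 control probe sets were left out, and of 54613 others 41091 had 1 gene symbol, 1801 several and 11721 none. Each gene was read by its brightest single-symbol probe set, those open to cross-hybridisation being used only where there was no other. Groups came from the labels. The test of DTPs against parental arrays used limma (version 3.58.1; R 4.3.3), two-sided with Benjamini-Hochberg adjustment, calling an adjusted p below 0.05 with a fold above 1.5; the fit was tested on simulated data. The study methods name limma with the same limits for the arrays. With 3 arrays a group, their number limits the precision. The 43 genes and all lists were chosen with earlier results of these data known. Values on all arrays are given for the most changed called gene and the least changed gene of each role. They are also given for the 12 largest changes and for genes whose probe sets disagree. In other lists they are given for CKAP2L, CENPT and NEK7, and the other called genes named there have the fold change only. SPC24, INCENP, CDCA8 and RACGAP1, partners of listed genes, were named after their values were seen. Alternatives were the replicate block, leaving out each array, centring on spike-ins or ribosomal protein genes, cyclic loess and a dim filter. Variance and array-weight options, Student's t-test, a 2-fold minimum and other probe set rules were also run.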

Additional observations from a re-analysis of the deposited data

How the results depend on the processing

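No gene of the 43 was called higher under any alternative run. The count called lower was 23 and ranged from 20 to 27 when one array was left out; it was 16 after centring on ribosomal protein genes or spike-ins and 3 with a 2-fold minimum. Both centrings moved the median of all genes from −0.05 to 0.08 and 0.10, and the split of calls over all genes from 1597 higher and 1212 lower to 2166 and 841 and to 2290 and 795; the median of the 43 was then −0.51 and −0.49. Probe sets called lower numbered 33 (30 to 39 with one array left out, 5 with a 2-fold minimum). The 1 probe set called higher dropped to 0 with the dim filter, array weights, a 2-fold minimum, without DTP replicate 3 or without parental replicate 2 (range 0 to 1). Other pathway genes called lower numbered 24 (18 to 32 with one array left out), with 15 after ribosomal centring, 14 after spike-in centring and 3 with a 2-fold minimum; those called higher numbered 2 (1 to 3), with 5 after either centring and 1 with a 2-fold minimum or the mean of probe sets. The median of −0.64 ranged from −0.73 to −0.58 with one array left out and was −0.47 with the mean of all probe sets. Signs turned for BUB3 (0.0049) and CDC20 (0.0063) after spike-in centring, MAD2L1 (0.0054 after ribosomal and 0.027 after spike-in centring), CENPF (0.12 with the mean of probe sets) and KIF20A (−0.015 without DTP replicate 3, within −0.015 to 0.127 over the arrays left out); none of these was called. The replicate block gave 23 lower and changed no call. Same-numbered arrays correlated in their deviations at −0.13, 0.08 and −0.05, and differently numbered ones at −0.12 to 0.17. With 3 arrays a group, these values cannot show whether the numbers pair the samples. With no detection call, values of dim probe sets have no known floor.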
